A study of Sus scrofa with 2 samples.

Results

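SINE1, also called PRE-1, is the short interspersed element of the pig genome, a retroposon that arose from a tRNA and is present in very many copies. These are the small RNAs of pig oocytes that carry its sense strand, the strand of an element transcript. Sequences of 18 to 32 nt were kept when they matched the sense strand of a SINE1 consensus with at most 1 mismatch and matched the antisense strand no better. This gave 2106 distinct sequences of 1144324 distinct sequences of that length in both libraries together, and they held 7737 of 11951752 reads in the Dicer KD library and 6333 of 11811481 reads in the control library.

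The study made 1 small RNA library from each of 2 groups of pig oocytes. The Dicer KD oocytes had been treated with siRNA against Dicer at the germinal vesicle (GV) stage and then matured in vitro for 42 h, and the control oocytes were also matured in vitro for 42 h, to metaphase II (MII). The labels give neither what the control oocytes received nor how many oocytes or animals stood behind a library. Dicer itself and the protein-coding markers of oocytes cannot be read from tables of small RNAs, so neither the depth of the knockdown nor the purity of the oocytes was checked here. With 1 library per group there is no replicate check and no test between the conditions. Every interval below is an exact 95% interval that covers counting error only, and each ratio is Dicer KD over control, of reads scaled to all reads of the library (RPM).

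Elements of this kind are transcribed by RNA polymerase III from an internal promoter with an A box and a B box, which they inherited from the tRNA. Several kinds of small RNA can bear their sequence: siRNAs, which Dicer cuts from double-stranded RNA, piRNAs, which germ cells make without Dicer and which usually start with uridine, and fragments of the transcript itself. In the piRNA amplification loop a sense and an antisense piRNA overlap by 10 nt at their 5′ ends, so a partner of a piRNA that starts with U carries A at base 10. Mammalian oocytes hold both endogenous siRNAs and piRNAs. The tables write U as T.

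The consensus was rebuilt from the deposited sequences, led through 8 short anchors of 9 nt recalled from the published element. It was 222 nt long, without an A-rich tail, and all positions below count from 1 at its 5′ end. It is shown whole because every read is placed on it, with the first match on the sense strand of the A box core TGGCNNA and of the B box core GGTTCNA in capitals. These lie at positions 14 to 20 and 58 to 64, in the tRNA-like head, and the A box core also occurs at positions 159 to 165.
SINE1 consensus: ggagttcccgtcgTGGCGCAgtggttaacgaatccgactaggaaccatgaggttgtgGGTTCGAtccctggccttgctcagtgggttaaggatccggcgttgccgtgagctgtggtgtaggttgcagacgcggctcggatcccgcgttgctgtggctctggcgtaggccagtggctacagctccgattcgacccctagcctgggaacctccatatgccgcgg

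The reads that started at position 22, just after the A box core, were the largest set. The 4 most abundant members of 24 to 32 nt all began there. They are shown with base 1 and base 10 in capitals, because the consensus has T at position 22 and A 9 bases further on.
22 to 46, exact: TggttaacgAatccgactaggaacc
22 to 45, exact: TggttaacgAatccgactaggaac
22 to 46, C29T: TggttaatgAatccgactaggaacc
22 to 46, T25C: TggctaacgAatccgactaggaacc

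A substitution gives the consensus base, its position and the base of the read. The second set includes the 4 members with the highest Dicer KD to control ratios among those with at least 20 reads, when a count of 0 is set to 3 reads. Its members ended at position 46, 79 or 218 and started with a base other than T, and their last 6 bases, which members of one 3′ end share, are in capitals. The exact one from 23 to 46 was not higher in Dicer KD, with 108 reads there and 126 in control.
29 to 46, C35T: cgaatctgactaGGAACC
28 to 46, C35T: acgaatctgactaGGAACC
27 to 46, C35T: aacgaatctgactaGGAACC
23 to 46, exact: ggttaacgaatccgactaGGAACC
59 to 79, exact: gttcgatccctggccTTGCTC
200 to 218, C208T: ctgggaacttccaTATGCC
199 to 218, C208T: cctgggaacttccaTATGCC
199 to 218, exact: cctgggaacctccaTATGCC
194 to 218, exact: cctagcctgggaacctccaTATGCC
191 to 218, exact: acccctagcctgggaacctccaTATGCC

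The last set holds the 4 members with the lowest ratios at that minimum. The base that differs from the consensus is in capitals.
123 to 143, C143T: tgcagacgcggctcggatccT
123 to 143, G130T: tgcagacTcggctcggatccc
122 to 143, C143T: ttgcagacgcggctcggatccT
121 to 143, C143T: gttgcagacgcggctcggatccT

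SINE1 sense reads were somewhat more abundant in the Dicer KD library, and the difference lay in the shortest reads and in the longest. All members together came to 646 RPM (631 to 660) in Dicer KD and 535 RPM (522 to 548) in control, a ratio of 1.21 (1.17 to 1.25). A share of a library cannot tell more SINE1 RNA from less of the other RNA. The 18 to 20 nt class held 1546 reads in Dicer KD and 854 in control, which is 1.79-fold (1.64 to 1.95) higher. The 21 to 23 nt class, the size of Dicer products, held 2142 reads in Dicer KD and 2207 in control, with a ratio of 0.959 (0.903 to 1.02). The 24 to 32 nt class held 4049 reads in Dicer KD and 3272 in control, which is 1.22-fold (1.17 to 1.28) higher. For all other sequences the ratios of these classes were 1.05, 0.948 and 1.03, and the interval of the 21 to 23 nt SINE1 reads includes that of the rest.

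The match rule moved some of these values. Exact matches of 21 to 23 nt had 627 reads in Dicer KD and 480 in control, a ratio of 1.29 (1.14 to 1.46), and those with 1 mismatch had 1515 and 1727 reads in the same order, a ratio of 0.866 (0.808 to 0.929). Just outside the rule, sequences with 2 mismatches held 15197 reads in Dicer KD and 12353 in control, about as far apart as the members (1.22, 1.19 to 1.24). Their classes differed from those of the members, with ratios of 0.878 at 18 to 20 nt, 1.12 at 21 to 23 nt and 1.85 at 24 to 32 nt. With them counted in, the 18 to 20 nt ratio came to 1.02 in place of 1.79. Most 18 to 20 nt reads with 2 mismatches began at position 182, with 2935 reads in Dicer KD and 3632 in control.

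The members were many and mostly rare. Of the 2106 sequences, 331 matched exactly and 1775 had 1 mismatch. Both libraries held 550 of them, 857 were seen in Dicer KD alone and 699 in control alone, and 920 rested on a single read. Dicer KD thus held 1407 of the members and control 1249. Of all 1144324 distinct sequences of 18 to 32 nt, Dicer KD held 677665 and control 707898. Most sequences were therefore seen in a single library, among the members and among all sequences. The 550 shared sequences carried 76.2% of the member reads in Dicer KD and 79.7% in control. The peak length was 25 nt, with 26.4% of member reads in Dicer KD and 24.7% in control, while only 9.72% and 9.60% of all other reads had that length, in the same order. At 26 nt and above the members dropped away, with 181 reads at 26 nt in Dicer KD and 131 in control. By single lengths the ratio was above 2 at both ends of the range. It was 2.96 (2.3 to 3.85) at 18 nt, with 246 reads in Dicer KD and 82 in control, and 0.769 (0.685 to 0.863) at 21 nt, with 527 and 677. At 27 nt it was 2.41 (1.77 to 3.32), with 144 reads in Dicer KD and 59 in control, and at 28 nt 3.09 (2.06 to 4.75), with 100 and 32. No read of 33 to 44 nt matched the sense strand in either library, of 31173 such reads in Dicer KD and 24679 in control.

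Position 22 set the 24 to 32 nt class. It was the 5′ end of 2392 of the 4049 reads of that class in Dicer KD (59.1%) and of 1918 of the 3272 reads in control (58.6%). Over all lengths the position gave 2465 reads in Dicer KD and 1972 in control, a ratio of 1.24 (1.16 to 1.31). The 3′ ends were as narrow as the 5′ end. Of the reads from position 22, 69.7% in Dicer KD and 67.1% in control were 25 nt long and ended at position 46, and 26.4% and 29.2% were 24 nt long. The most abundant member, the exact 25-mer from 22 to 46, had 898 reads in Dicer KD and 657 in control, a ratio of 1.35 (1.22 to 1.5). The exact 24-mer from 22 to 45 had 268 and 185 reads in that order, a ratio of 1.43 (1.18 to 1.74). Its variants were nearer to even: C29T had 210 reads in Dicer KD and 193 in control, and T25C had 191 and 161, and both ratios, 1.07 (0.880 to 1.31) and 1.17 (0.945 to 1.45), had intervals that included 1.

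Reads of 24 to 32 nt also began at positions 140, 182 and 23. Position 140 gave 263 reads in Dicer KD and 320 in control, a ratio of 0.812 (0.687 to 0.959). Position 182 gave 254 and 134 reads, a ratio of 1.87 (1.51 to 2.33), the only one of these 4 positions to stand above 1.5. Position 23 gave 183 and 198 reads, a ratio of 0.913 (0.743 to 1.12). The 4 positions together took 76.4% of the class in Dicer KD and 78.6% in control, where 199 start positions were possible for a read of 24 nt. The 24 to 32 nt reads that began in the 3′ stretch, positions 149 to 222, numbered 486 in Dicer KD and 189 in control, those that began at positions 75 to 148 numbered 551 and 595, and those that began at positions 1 to 74 numbered 3012 and 2488. The ratios were 2.54 (2.14 to 3.02), 0.915 (0.813 to 1.03) and 1.20 (1.13 to 1.26) in that order.

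The shorter classes were spread more widely along the element. At 21 to 23 nt the 4 leading positions held 27.4% of the reads in Dicer KD and 32% in control. Position 23 led with 296 reads in Dicer KD and 210 in control, a ratio of 1.39 (1.16 to 1.67), and its most abundant sequence, a 23-mer that ends at position 45, had 185 and 113 reads. Among the other abundant members of this size, the 23-mer from 196 to 218 with C199T had 45 reads in Dicer KD and 34 in control, and the 21-mer from 32 to 52 with G52A had 22 and 40. Positions 26 and 25 lay close to even, with 168 and 98 reads in Dicer KD and 150 and 118 in control. Position 123 was the exception, with 26 reads in Dicer KD and 228 in control, a ratio of 0.113 (0.0720 to 0.169). At 18 to 20 nt positions 182 and 135 gave 214 and 73 reads in Dicer KD and 307 and 46 in control. Positions 28 and 27 gave 233 and 179 reads in Dicer KD, against 13 and 7 in control. The 5′ ends of all members used 168 of the consensus positions, and the members covered all 222. The consensus was rebuilt from the deposited sequences, so its coverage largely follows from how it was built.

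Counted over all positions, the first base separated the members into a set that was even between the libraries and a set that was not. Members starting with T held 5013 reads in Dicer KD and 5011 in control, a ratio of 0.988 (0.95 to 1.03). This evenness rested on the reads from position 22. Without them, members starting with T were lower in Dicer KD, with 2551 reads against 3039 in control. Members starting with another base held 2724 reads in Dicer KD and 1322 in control, a ratio of 2.04 (1.91 to 2.18), while all other sequences of 18 to 32 nt starting with another base had a ratio of 1.10. The share of T was therefore 64.8% (63.7 to 65.9%) in Dicer KD and 79.1% (78.1 to 80.1%) in control, beside 84.5% and 85.9% of all other reads and 23.4% of the consensus positions. The same held just outside the rule, where sequences with 2 mismatches gave 10748 reads starting with T in each library, and 4449 reads with another first base in Dicer KD and 1605 in control.

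Among the members the gap was widest in the shortest reads. Among sequences with 2 mismatches it was widest at 24 to 32 nt, where those not starting with T had a ratio of 6.96 (6.15 to 7.91) and those starting with T 1.34, while at 18 to 20 nt the ratios were 2.99 and 0.782. Of the 24 to 32 nt sequences with 2 mismatches, 8 started at position 191, where the consensus has A. Those 8 alone held 674 reads in Dicer KD and 2 in control. At 18 to 20 nt, members with a first base other than T held 936 reads in Dicer KD and 137 in control, a ratio of 6.75 (5.64 to 8.13), against 1.18 for the rest of the libraries. Members of that size starting with T held 610 and 717 reads, a ratio of 0.840 (0.753 to 0.938). At 21 to 23 nt the reads starting with T were lower in Dicer KD, with 1116 reads against 1476 in control and a ratio of 0.747 (0.690 to 0.808), where the rest of the libraries had 0.930. Those with another first base were higher, with 1026 reads in Dicer KD and 731 in control, a ratio of 1.39 (1.26 to 1.53). At 24 to 32 nt both kinds were higher in Dicer KD, with ratios of 1.15 for T and 1.66 for the other bases. The excess for T lay in the reads from position 22. Without them, members of that size starting with T held 898 reads in Dicer KD and 900 in control.

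Base 10 was A in 71.9% (70.5 to 73.3%) of the 24 to 32 nt reads in Dicer KD and 71.3% (69.7 to 72.9%) in control, but the single position 22 carried this. Among all other reads of that size the share was 61.5% in Dicer KD and 61.1% in control, and 14.9% of the consensus positions are A. Without the reads from position 22 the share of A at base 10 was 31.6% in Dicer KD and 30.9% in control, and the share of T at base 1 was 54.2% and 66.5% in that order. Few antisense reads met the reads from position 22 at a 10-nt overlap, 29 in Dicer KD and 24 in control. Position 182 was different. Of 4914 antisense reads in Dicer KD and 3527 in control, 3186 (64.8%) and 2966 (84.1%) had their 5′ end at position 191, which overlaps a sense read from position 182 by 10 nt. The most abundant 18 to 20 nt member was of this kind, a 20-mer from 182 to 201 with C184T, which had 150 reads in Dicer KD and 200 in control, a ratio of 0.741 (0.595 to 0.920). It is shown with base 1 and base 10 in capitals.
182 to 201, C184T: TctgattcgAcccctagcct

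Much of the excess of reads not starting with T in Dicer KD lay at 3 shared 3′ ends. These ends were chosen after their values had been seen, as those where a length class held at least 50 reads not starting with T at a ratio of at least 10, so their ratios describe the choice. At position 46 the reads of 18 to 20 nt numbered 473 in Dicer KD and 16 in control, a ratio of 29.2 (17.8 to 51.5). Longer reads not starting with T at that end were close to even, with 38 reads in Dicer KD and 31 in control at 21 to 23 nt and 180 and 193 at 24 to 32 nt. At position 79 the reads of 21 to 23 nt numbered 84 in Dicer KD and 3 in control, a ratio of 27.7 (9.15 to 137). At position 218 the reads of 18 to 20 nt numbered 130 in Dicer KD and 0 in control, which makes them at least 42.8-fold higher when 0 is set to the floor of 3 reads. Reads of 24 to 32 nt with that 3′ end numbered 177 and 7, a ratio of 25.0 (11.9 to 63.0).

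At the same 3′ ends the reads starting with T were much closer between the libraries. At position 46 they numbered 1834 in Dicer KD and 1467 in control, a ratio of 1.24 (1.15 to 1.32), which is clear of 1. At position 79 they numbered 92 and 83, a ratio of 1.10 (0.805 to 1.49), and at position 218 they numbered 90 and 87, a ratio of 1.02 (0.753 to 1.39). The choice took only ends higher in Dicer KD. At position 143, which it left out, reads starting with T numbered 28 in Dicer KD and 241 in control, a ratio of 0.115 (0.0747 to 0.170). The 3 ends together held 1098 reads not starting with T in Dicer KD and 250 in control, and all other 3′ ends held 1626 and 1072, a ratio of 1.5 (1.39 to 1.62). Sequences with 2 mismatches, which the choice of the ends had not used, gave 1654 such reads at the 3 ends in Dicer KD and 68 in control, a ratio of 24 (18.9 to 31.1), and 2795 and 1537 at all other ends, a ratio of 1.80. They came from the same libraries and were placed on the same consensus, so they are no independent check of that choice. Without the members not starting with T at the 3 ends, the 18 to 20 nt ratio was 1.10 in place of 1.79, and that of all lengths was 1.08 in place of 1.21. As the ends were chosen for a high ratio, the direction of this fall was set by the choice.

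The reads that end at position 46 form a ladder of 5′ ends. The 18-mers that start at position 29 numbered 77 in Dicer KD and 0 in control, which is at least 25.3-fold higher. The 19-mers from position 28 numbered 225 and 12 in that order, a ratio of 18.5, and the 20-mers from position 27 numbered 171 and 4, a ratio of 42.2. The next steps up were even: 21-mers from position 26 numbered 61 in Dicer KD and 63 in control, 22-mers 63 and 80, 23-mers 30 and 28, and 24-mers 178 and 191. The step lay between the 20-mers and the 21-mers, at ratios of 42.2 and 0.956. By the consensus the 21-mers and 22-mers start with T, but the 23-mers and 24-mers, which were as even, start with G.

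Most of the short reads in this ladder carried C35T, a change of C to T in a CpG. The 20-mer from 27 to 46 with C35T had 137 reads in Dicer KD and 1 in control, a ratio of 135 (23.9 to 5383). The 19-mer from position 28 had 180 and 8 reads, a ratio of 22.2 (11.0 to 52.3), and the 18-mer from position 29 had 66 and 0 reads, at least 21.7-fold higher. The exact 19-mer from position 28, without C35T, had 24 reads in Dicer KD and 3 in control. Reads with C35T that start with T did not share the excess, at 295 in Dicer KD and 291 in control.

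At position 218 the ladder was longer. The 19-mers from position 200 numbered 50 in Dicer KD and 0 in control, the 25-mers from position 194 numbered 79 and 5, and the 28-mers from position 191 numbered 40 and 0. Its exact 25-mer had 70 reads in Dicer KD and 4 in control, a ratio of 17.3 (6.46 to 65.2). The 23-mers from position 196, which start with T, broke the pattern with 89 and 81 reads, a ratio of 1.09 (0.794 to 1.49). Over all 3′ ends, members whose 5′ end was at position 191 held 56 reads in Dicer KD and 0 in control. Sequences of 24 to 32 nt with 2 mismatches from that position held 674 and 2 reads, a ratio of 333 (91.8 to 2754). These were only 8 distinct sequences. They are part of the 24 to 32 nt class with 2 mismatches, which held 5894 reads in Dicer KD and 3145 in control. At position 79 the 21-mers from position 59 numbered 57 and 3, and the exact one had 32 and 0 reads. The 20-mers and 19-mers from positions 60 and 61, which start with T, numbered 49 and 41 in Dicer KD and 45 and 38 in control.

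The 4 members with the lowest ratios came from a single stretch, positions 121 to 143. The 21-mer from 123 to 143 with C143T was not found in Dicer KD and had 124 reads in control, at least 41.8-fold lower in Dicer KD. The 23-mer from position 121 with the same change had 0 and 24 reads, at least 8.10-fold lower, and the 22-mer from position 122 had 2 and 29, a ratio of 0.0681 (0.00788 to 0.269). The 21-mer with G130T and the consensus base at position 143 had 1 and 29 reads, a ratio of 0.0341 (0.000834 to 0.205). Exact reads from position 123 were lower as well, with 20 in Dicer KD and 58 in control, a ratio of 0.341 (0.194 to 0.575). Members with G130T anywhere in the read came to 22 reads in Dicer KD and 133 in control, a ratio of 0.163 (0.0991 to 0.258), from 36 distinct sequences and 15 start positions.

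Fold changes of single members were counted at a minimum of 20 reads in both libraries together, which 102 of the 2106 members reached. The other 2004 held 3028 reads in Dicer KD and 2601 in control. Of the 102, 23 were at least 2-fold higher in Dicer KD and 10 at least 2-fold lower, with 69 in between. Among all 51766 sequences of 18 to 32 nt with 20 reads, 10.3% were that much higher and 11.8% that much lower. The median log2 ratio was 0.24 over the 102 members and -0.04 over all sequences, with 0.5 reads added to each count.

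Counted by distinct sequence, the mismatches were spread over the reads except at the last base. Of the 1775 members with 1 mismatch, 565 (31.8%) had it in bases 2 to 8, where an even spread over the bases gives 31.6%. The first base held 69 (3.89%) and the last base 137 (7.72%), where an even spread gives 4.51% for each. Counted by reads they were less even. Bases 2 to 8 held 47.6% of the reads with 1 mismatch in Dicer KD and 44.8% in control, and the first base 2.49% and 1.46%. Mismatches at the last base came to 244 reads in Dicer KD and 462 in control, a ratio of 0.522 (0.445 to 0.611). Most of that gap was in reads whose last base was a mismatched T, with 61 in Dicer KD and 259 in control, of which the 21-mer with C143T alone gave 0 and 124. Reads with a mismatched A at the end numbered 159 and 173.

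By kind, 493 of the 1775 (27.8%) were C-to-T or G-to-A changes at the 38 consensus positions that lie in CpG, the dinucleotide that mutates fastest in methylated DNA. They held 45.4% of the reads with 1 mismatch in Dicer KD and 44.2% in control. Other transitions made up 662 sequences and transversions 620. The 6 substitutions found in most distinct sequences were C35T, C143T, G41A, G130T, C145T and C145A, in 68, 55, 42, 36, 34 and 33 sequences. C35T held 790 reads in Dicer KD and 366 in control, a ratio of 2.13 (1.88 to 2.42), and C143T held 165 and 352, a ratio of 0.463 (0.383 to 0.559). The C143T gap lay mostly at 21 to 23 nt, with 73 reads in Dicer KD and 252 in control. Of these the 21-mer from position 123 gave 0 and 124. C143T reads of 18 to 20 nt numbered 28 and 22, and those of 24 to 32 nt 64 and 78. G41A held 137 and 128 reads, C145T 133 and 100, and C145A 111 and 59.

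By reads, C35T, T25C, C184T, C29T and C143T led the substitutions, followed by G41A. T25C held 351 reads in Dicer KD and 432 in control, a ratio of 0.803 (0.695 to 0.926). C29T held 304 and 266 reads, a ratio of 1.13 (0.954 to 1.34). C184T held 380 and 360 reads, a ratio of 1.04 (0.900 to 1.21), but its lengths differed between the libraries. Its 18 to 20 nt reads numbered 165 in Dicer KD and 227 in control, a ratio of 0.718 (0.584 to 0.881), and its 24 to 32 nt reads numbered 150 and 61, a ratio of 2.43 (1.79 to 3.33).

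The strands differed by length. At 18 to 20 nt the sense strand held 39.4% (37.8 to 40.9%) of SINE1 reads in Dicer KD and 29.0% (27.3 to 30.6%) in control, so antisense reads were the majority. At 21 to 23 nt it held 56.2% (54.6 to 57.8%) in Dicer KD and 72.1% (70.4 to 73.6%) in control, as antisense reads of that size numbered 1668 in Dicer KD and 856 in control, a ratio of 1.93 (1.77 to 2.09). At 24 to 32 nt it held 82.4% (81.3 to 83.5%) in Dicer KD and 85.0% (83.9 to 86.1%) in control.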

How the data were processed

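Adapters were ligated to small RNA from the oocytes and the cDNA was sequenced on Illumina machines, as the labels' protocols say. For each library the authors deposited the length, sequence and raw read count of every distinct read, without normalization. The submitters' processing notes name Bowtie2 but not its role. A genome build and trimming are not given in the sources used here. Dicer KD held 11982925 reads and control 11836160.

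The consensus was rebuilt from distinct sequences of 18 to 32 nt on both strands. The best-supported path through their 17-mers, each in at least 3 sequences, was led through 8 anchors of 9 nt recalled from the published element. Bases were then set by majority among matches with up to 2 mismatches, which changed 2. It may mix subfamilies, and without a genome no read was placed on a chromosome or checked against tRNA genes. Its reversed sequence had 0 matches. Reads were placed without gaps at their position of fewest mismatches, the leftmost on ties. Placement, rebuilding and intervals were tested on simulated data.

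Intervals are Clopper-Pearson for shares, exact Poisson for RPM and exact conditional for ratios. A count of 0 in a ratio was set to 3 reads. Sequences named are, per length class, the 4 most abundant, and the 4 largest and 4 smallest ratios at 20 reads or more. 5′ positions named are the 4 with most reads per class, and substitutions the 6 with most sequences and most reads. The 3 shared 3′ ends, their sequences and position 191 were chosen after their values were seen. The members and lists were chosen with earlier results of these data known. The software was scipy 1.17.1, pandas 2.3.3, numpy 2.4.6 and Python 3.11.15.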

Additional observations from a re-analysis of the deposited data

How the results depend on the processing

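Log2 ratios of Dicer KD over control, the share of reads starting with T and the counts of members past 2-fold were recomputed under 76 combinations of result and setting. No ratio that stood clear of 0 changed sign, 46 values stayed within the interval or within 1.5 times the count, and 30 moved beyond that. Some of the 46 could not have moved. No member had an equally good antisense match, so leaving such members out removed 0 sequences. The most abundant member is a 25-mer, so the 18 to 20 nt and 21 to 23 nt ratios did not depend on it. Consensus bases set from either library alone left every member as it was. With exact matches only, the log2 ratio was 0.43 at 18 to 32 nt (0.27 in the report), 0.37 at 21 to 23 nt (-0.06) and 0.37 at 24 to 32 nt (0.29), and the share of T was 66.1% in Dicer KD and 76.6% in control. With at most 2 mismatches it was 0.025 at 18 to 20 nt (0.84), 0.10 at 21 to 23 nt and 0.61 at 24 to 32 nt, and the share of T was 68.7% in Dicer KD and 84.3% in control. Counting a distinct sequence once per library, it was 0.47 at 18 to 20 nt and 0.10 at 21 to 23 nt, and the share of T was 49.1% in Dicer KD and 62.2% in control. The share of T in the same order was 66.5% and 80.8% without single-read sequences, and 60.2% and 76.7% without the most abundant member. At a minimum of 10 reads, 46 of 199 members were at least 2-fold higher and 37 lower, a more even split than the 23 and 10 of 102 at 20 reads, beside 15.1% and 17% of all sequences. At 50 reads these were 6 and 1 of 32, beside 7.16% and 7.34%. With exact matches only, at 20 reads, they were 7 and 2 of 30, beside 10.3% and 11.8% of all sequences.

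Settings chosen after seeing the data were added. Without the reads not starting with T at the 3 shared 3′ ends, the log2 ratio was 0.11 at 18 to 32 nt and 0.14 at 18 to 20 nt, and the share of T was 75.5% in Dicer KD and 82.4% in control. The direction of these changes was set by the choice of the ends and of the reads left out. Without position 22 the share of T was 48.4% in Dicer KD and 69.7% in control. Consensus bases set from the sequences of either library alone were the same 222. Only the majority vote on bases was repeated, among sequences that matched the consensus built from both libraries. The path and the length were not rebuilt, so this is no independent check of the consensus. The cause of these shifts was not tested, beyond the reads each setting adds or removes. The reads of mature miRNAs were not run as a denominator, since no miRNA table was used here. No paired analysis was possible because each group has 1 library. Members under 20 reads allow no firm ratio at this depth.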
